A study of Mus musculus with 16 samples.

Results

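Troponins and tropomyosins are the regulatory proteins of the muscle thin filament, and 9 of their genes were followed through 6 groups of mouse gastrocnemius RNA. They were the fast troponins Tnnt3, Tnni2 and Tnnc2, the slow troponins Tnnt1, Tnni1 and Tnnc1, and the tropomyosins Tpm1, Tpm2 and Tpm3. Members were all non-control probes whose deposited gene name was one of these symbols. This gave 18 probes of 9 genes, out of 55681 probes with 34650 gene names, and 17 of the 18 were bright enough to be tested.

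The arrays came from male C57BL6 littermates aged 8 to 16 weeks, Eif6+/+ (WT) or Eif6+/− (Het). The Het mice are heterozygous for Eif6, a factor that acts on the large ribosomal subunit. From gastrocnemius, a calf muscle made mostly of fast fibres in mice, total RNA (whole muscle), RNA of gradient fractions with 2 or more ribosomes (polysomes) and RNA of the single-ribosome fraction (monosomes) were hybridized. Whole muscle and polysomes had 3 WT and 3 Het mice each, and monosomes had 2 and 2. The same mice gave the different kinds of RNA. The question was which transcripts differ in level, and which in their share on ribosomes, when Eif6 is reduced.

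In a resting fibre, tropomyosin lies along actin and blocks the sites that myosin needs. Troponin C binds calcium, troponin I holds the filament in its inhibited state until then, and troponin T ties the complex to tropomyosin. Fast and slow fibres use different genes for each troponin subunit, and so the fast and slow sets are widely used as markers of fibre type. Tpm1 encodes the tropomyosin typical of fast fibres and the heart, Tpm2 the beta form, and Tpm3 the form typical of slow fibres. All 3 tropomyosin genes also make shorter proteins in cells other than muscle through alternative exons. In RNA of a whole tissue, fewer cells of a type and less RNA per cell cannot be told apart.

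All values below are log2 signals of 1 probe on 1 array after quantile normalization, written as log2 units, and differences between them are log2 differences. All kinds of RNA were normalized together to 1 distribution, so a value places a probe among the others on its array. The amount of an mRNA in each kind of RNA was not measured. A rise or fall between kinds of RNA is meant in this relative sense. The level of 1 probe was not set against that of another. Before normalization the arrays differed in brightness, given here as each array's 75th percentile of processed signal, which spanned 12.7 to 150.1, and 23.5% to 45.9% of spots were well above background. Along 219 transcripts with probes at least 500 bases apart, the 5′ probe was lower than the 3′ probe by a median of 1.13 to 1.62 on 14 arrays. WT polysome 2 and WT monosome 2 stood apart, with medians of -0.12 and 0.34. The 2 WT monosome arrays also had a correlation of only 0.78 with each other. Eif6 itself (probe A_52_P85864) was lower on every Het array than on every WT array of the same kind of RNA, with differences of -0.93 in whole muscle (limma adjusted p = 0.351), -1.32 in polysomes (limma adjusted p = 0.193) and -1.82 in monosomes (limma adjusted p = 0.0451). Another Eif6 probe (A_55_P1989013) differed by -1.07, -1.20 and -1.86 in the same order, and its monosome difference did not pass (limma adjusted p = 0.0722). Of the defining markers of heart muscle, Tnni3 and Nppa were well above background on 0 of 16 arrays, Myh6 on 11 and Tnnt2 on 12.

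Fast troponin probes were among the brightest features on every array. After quantile normalization they differed by only -0.20 to 0.20 between genotypes in whole muscle and polysomes. That normalization leaves probes at the top of the scale few ranks to move. They were nevertheless higher in WT polysomes than in WT monosomes by 0.66 to 0.89. Tnni2, the fast troponin I, ranked between 1 and 16 of all probes, and Tnnc2, the fast troponin C, between 2 and 14. Tnnt3, the fast troponin T, had 2 probes, which ranked 10 to 43 and 34 to 80. They are shown because their coding sequences overlap by the 27 bases in capitals, so that they read neighbouring stretches of the same mRNA. In the mm9 build they lie on the plus strand at chr7:149698467-149698526 and chr7:149698500-149700262, the second across an exon junction.

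Tnnt3 probe 1: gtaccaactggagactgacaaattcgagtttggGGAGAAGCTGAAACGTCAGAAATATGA
Tnnt3 probe 2: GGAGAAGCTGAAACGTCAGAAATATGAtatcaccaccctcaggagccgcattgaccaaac

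In whole muscle, Tnnt3 probe 1 read 17.30, 17.25 and 16.92 in WT mice 1 to 3 and 17.17, 17.21 and 16.83 in Het mice 1 to 3. In polysomes it read 17.17, 17.50 and 17.21 in WT and 17.39, 17.58 and 17.50 in Het. The monosome values were 16.32 and 16.64 in WT and 16.99 and 16.64 in Het. The WT and Het values therefore overlapped in whole muscle and polysomes and met in monosomes. Ordered by mean, the groups ran from Het polysomes (17.49 ± 0.09, SD, n = 3) through WT polysomes, WT whole muscle, Het whole muscle and Het monosomes to WT monosomes (16.48 ± 0.23, SD, n = 2), and no neighbours in this order were separated beyond their spread. Tnnt3 probe 2 did have such a step, from Het polysomes (16.41 ± 0.12, SD, n = 3) to WT whole muscle (15.89 ± 0.23, SD, n = 3).

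Tnni2 (chr7:149630251-149630310, plus strand) had WT whole-muscle values of 17.72, 18.17 and 17.93 and Het values of 18.04, 17.93 and 17.93. Its polysome values were 18.25, 18.48 and 18.17 in WT and 18.17, 17.93 and 18.25 in Het. The monosome values were 17.25 and 17.58 in WT and 17.78 and 17.86 in Het, so that both WT monosome arrays lay below all other arrays for this gene. In the order of group means only this last step, from Het monosomes (17.82 ± 0.06, SD, n = 2) to WT monosomes (17.41 ± 0.24, SD, n = 2), was larger than the spread.

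Tnnc2 (chr2:164602661-164602720, minus strand) read 18.25, 17.78 and 17.72 in WT whole muscle and 18.17, 18.04 and 17.72 in Het whole muscle. In polysomes it read 18.17, 18.25 and 18.25 in WT and 18.04, 17.86 and 18.17 in Het. WT monosomes gave 17.36 and 17.50 and Het monosomes 18.04 and 17.93. The WT monosome values were again the lowest of the 16.

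Slow troponin mRNAs varied widely among WT mice. Their probes are shown for Tnni1, the slow troponin I, and Tnnc1, the troponin C shared by slow fibres and the heart, because both read across an exon junction of the coding sequence and not a 3′ end. They lie on the mm9 plus strand at chr1:137705328-137706203 and chr14:32023360-32023776. Tnnt1, the slow troponin T, had 2 probes on the minus strand at chr7:4456265-4456324 (probe 1) and chr7:4456172-4456231 (probe 2), 93 bases apart.

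Tnni1: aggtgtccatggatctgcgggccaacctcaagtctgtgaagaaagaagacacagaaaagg
Tnnc1: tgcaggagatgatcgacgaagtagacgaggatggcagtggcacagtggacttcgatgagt

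Tnnt1 probe 1 read 10.94, 11.75 and 9.88 in WT whole muscle and 10.87, 10.87 and 11.19 in Het whole muscle. In polysomes it read 12.12, 12.84 and 11.32 in WT and 11.99, 12.02 and 12.75 in Het. The monosome values were 11.14 and 12.11 in WT (mice 1 and 2) and 10.62 and 11.12 in Het (mice 1 and 3). WT mouse 2 was the highest and WT mouse 3 the lowest of the 3 WT mice in both whole muscle and polysomes, and the Het values fell between them or met them.

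The same order of WT mice held for Tnnc1, which read 8.11, 8.94 and 6.64 in WT whole muscle and 7.96, 8.40 and 8.41 in Het whole muscle. Its polysome values were 8.14, 9.90 and 7.53 in WT and 8.25, 8.44 and 8.89 in Het. WT monosomes gave 7.02 and 9.14, and Het monosomes gave 6.82 and 7.52. The span among WT polysome arrays was more than that among Het polysome arrays, with means of 8.52 ± 1.23 and 8.52 ± 0.33 (SD, n = 3 each). The highest of these WT values, 9.90, was that of WT polysome 2, an array that stood apart. The remaining WT polysome values, 8.14 and 7.53, were no further apart than the Het polysome values, 8.25 to 8.89.

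Tnni1 read 8.20, 8.34 and 6.99 in WT whole muscle against 7.20, 7.21 and 7.54 in Het. Its polysome values were 7.02, 8.89 and 7.12 in WT and 7.50, 7.83 and 8.36 in Het. In monosomes it read 5.69 and 8.28 in WT and 5.12 and 6.27 in Het, a wider gap between the WT arrays than for Tnnt1 or Tnnc1. For Tnnt1 probe 1, Tnni1 and Tnnc1, no neighbouring groups in the order of means were separated beyond their spread. Tnnt1 probe 2 gave 5.90 to 7.78 over all 16 arrays.

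The within-group SD put numbers on this difference between the fast and slow sets. In WT whole muscle the median SD was 0.225 over the 4 fast probes and 0.874 over the 4 slow probes, beside 0.276 over all probes tested, and the slow median lay above 95.9% of all probes. In Het whole muscle the medians were 0.207 and 0.223, beside 0.305 over all probes. In polysomes the slow median was 0.906 in WT and 0.380 in Het, beside 0.451 and 0.273 over all probes. WT polysome 2, the polysome array with the unlike 5′ to 3′ pattern, held the highest WT polysome value of each slow probe. How much of the WT polysome spread came from that array was not tested. A test of unequal spread was not made with 3 mice a group.

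The mean of Tnnt3 probe 1, Tnni2 and Tnnc2 minus that of Tnnt1 probe 1, Tnni1 and Tnnc1 followed the fast and slow sets together on each array. This balance sums different probes, so it is read only between arrays and not as a ratio of mRNA amounts. It was 8.67, 8.06 and 9.69 in WT whole muscle and 9.11, 8.89 and 8.45 in Het whole muscle. The polysome values were 8.77, 7.53 and 9.22 in WT and 8.62, 8.36 and 7.97 in Het. In monosomes the values were 9.02 and 7.40 in WT and 10.08 and 9.17 in Het, the only kind of RNA in which the genotypes did not overlap. Between 2 and 2 arrays, 50.4% of all probes tested also did not overlap in monosomes. The shares were 13.5% in whole muscle and 21.8% in polysomes, with 3 and 3 arrays. The Het minus WT differences of the means were 0.01 in whole muscle, -0.19 in polysomes and 1.42 in monosomes. In whole muscle the difference was 0.69 after 75th percentile scaling, -1.02 within slide 1 and 0.75 within slide 2, and in polysomes it was 0.47 within slide 1 and -1.05 within slide 2. The low WT monosome value of 7.40 was that of WT monosome 2, the array that stood apart, and without that mouse the monosome difference was 0.60, while without WT mouse 1 it was 2.23. From whole muscle to polysomes of the same mouse the balance changed by -0.49, -0.53 and -0.48 in the Het mice and by 0.10, -0.52 and -0.47 in WT mice 1 to 3, so that 5 of 6 mice moved alike. The slow troponins did not share this change evenly. Tnnt1 probe 1 rose by 1.09 to 1.56, while Tnni1 had means of -0.16 in WT and 0.58 in Het and Tnnc1 0.62 and 0.27. The fast probes changed by -0.61 to 0.15 in WT in the authors' log2 table, and the balance change is given for the main scaling only.

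**Figure D1:**
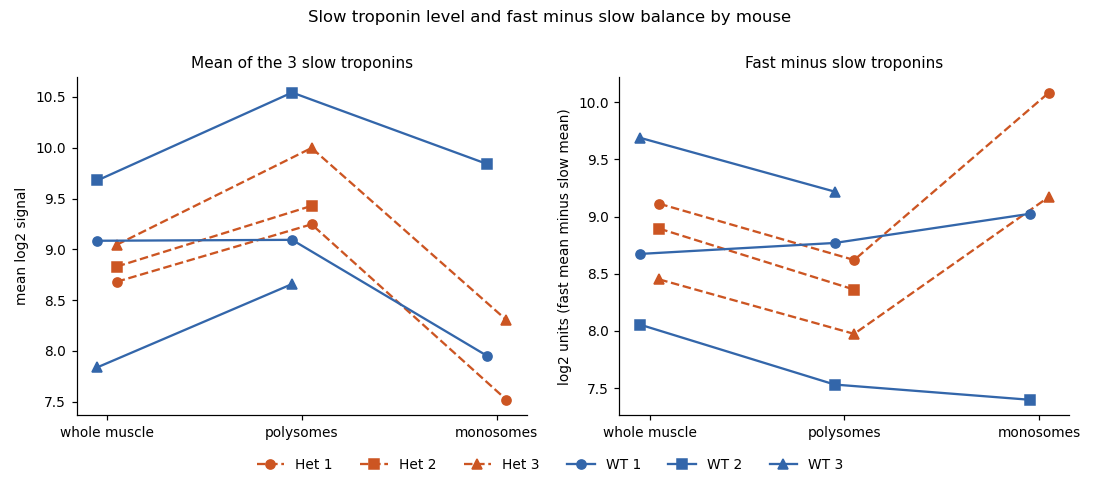
Mean log2 signal of the 3 slow troponins (left) and the fast minus slow balance in log2 units (right) on each of the 16 arrays, with a line joining the arrays of each mouse. WT mouse 2 has the highest slow mean in all 3 kinds of RNA (9.68, 10.54 and 9.84), WT mouse 3 the lowest in whole muscle and polysomes (7.84 and 8.66), and the Het monosome balance of 10.08 and 9.17 lies above the WT values of 9.02 and 7.40. The polysome and monosome arrays of WT mouse 2 are those that stood apart in their 5′ to 3′ pattern.

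Tropomyosins were read by more probes than the troponins, and probes of 1 gene did not always move together. Tpm1 was read by 4 tested probes, all on the minus strand of chromosome 9. A bright pair at chr9:66875796-66875855 (probe 1) and chr9:66875782-66875841 (probe 2) shares 46 bases. Probes 3 (chr9:66872131-66872190) and 4 (chr9:66871166-66871225) lie downstream, and their listed transcripts share 0 accessions with those of the bright pair. Probe 4 (A_55_P2032192) lies 4556 bases beyond that pair. It is shown with probe 2 of Tpm2 (A_52_P315976) because both differ below. The 60 bases of Tpm1 probe 4 end in a stop codon, in capitals, in an otherwise open frame, so that this probe reads the end of a coding sequence other than that of the bright pair's transcripts. Both Tpm2 probes, on the minus strand at chr4:43532262-43532321 and chr4:43531276-43531335, have an open frame throughout.

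Tpm1 probe 4: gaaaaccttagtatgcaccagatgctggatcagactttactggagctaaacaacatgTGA
Tpm2 probe 1: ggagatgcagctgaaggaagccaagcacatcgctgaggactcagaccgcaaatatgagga
Tpm2 probe 2: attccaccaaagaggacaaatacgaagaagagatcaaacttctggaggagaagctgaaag

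Tpm1 probe 1 ranked 4 to 24 among all probes and read 17.78, 18.04 and 17.78 in WT whole muscle and 17.78, 17.65 and 17.58 in Het whole muscle. Its polysome values were 17.65, 17.65 and 17.58 in WT and 17.86, 17.78 and 17.72 in Het, and its monosome values were 16.92 and 16.99 in WT and 17.45 and 17.25 in Het. WT was at or above Het in whole muscle and below it in both ribosomal kinds of RNA. Its neighbour, Tpm1 probe 2, went the other way in whole muscle, with 16.55, 17.03 and 17.03 in WT and 17.10, 17.10 and 17.03 in Het, a difference of 0.21 (SE 0.19, limma adjusted p = 0.861). In polysomes probe 2 read 17.13, 17.21 and 17.13 in WT and 17.30, 17.30 and 17.21 in Het, and in monosomes 16.51 and 16.72 in WT and 16.83 and 16.69 in Het. Probe 3 gave 6.84 to 8.28 over all arrays.

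Tpm1 probe 4 lay near background. It read 7.12, 6.22 and 5.72 in WT whole muscle and 5.48, 5.37 and 4.95 in Het whole muscle, without overlap. In polysomes the order turned, with 5.93, 4.94 and 5.66 in WT and 6.20, 6.16 and 6.28 in Het, again without overlap. Its monosome values were 5.31 and 4.90 in WT and 5.03 and 4.82 in Het. It was well above background on 14 of 16 arrays, the exceptions being Het whole muscle 2 and WT monosome 2. A further Tpm1 probe (A_55_P2078680) was well above background on 2 of 16 arrays, at 1.69 to 4.47, and was not tested.

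Tpm2 probe 1 read 13.73, 13.59 and 13.04 in WT whole muscle and 12.61, 12.96 and 13.17 in Het whole muscle. In polysomes it read 12.45, 13.68 and 13.38 in WT and 13.23, 13.46 and 13.85 in Het. The monosome values were 11.95 and 13.36 in WT and 11.62 and 11.87 in Het. Probe 2 read 13.28, 12.87 and 12.39 in WT whole muscle and 12.39, 12.30 and 12.36 in Het whole muscle. Its polysome values were 12.13, 12.62 and 13.11 in WT and 13.28, 13.50 and 13.35 in Het, without overlap, and its monosome values were 11.23 and 12.10 in WT and 11.30 and 11.38 in Het. Both probes were thus lower on average in Het than in WT whole muscle and higher in Het polysomes, but for Tpm2 probe 1 the polysome difference of 0.34 rested on WT polysome 1 and was -0.02 without that mouse.

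Tpm3 was read by 3 probes on the plus strand of chromosome 3, at chr3:89904428-89904487 (probe 1), chr3:89892985-89893044 (probe 2) and chr3:89877669-89877728 (probe 3). Probes 2 and 3 are shown because, as the next sentences give, they followed the slow troponins among WT mice while probe 1 did not.

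Tpm3 probe 2: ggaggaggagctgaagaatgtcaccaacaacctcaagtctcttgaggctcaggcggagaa
Tpm3 probe 3: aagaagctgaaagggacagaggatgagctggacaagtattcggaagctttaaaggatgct

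Tpm3 probe 2 read 8.49, 9.01 and 6.97 in WT whole muscle and 8.14, 8.21 and 8.59 in Het whole muscle. Its polysome values were 7.77, 9.62 and 7.45 in WT and 8.39, 8.58 and 9.39 in Het. WT mouse 2 was highest and WT mouse 3 lowest in both, as for Tnnt1 probe 1 and Tnnc1. Probe 3 had the same order, with 6.54, 7.29 and 5.18 in WT whole muscle and 6.20, 8.85 and 5.59 in WT polysomes. Probe 1 had another, with 10.15, 9.04 and 9.41 in WT whole muscle and 11.16, 9.61 and 10.14 in WT polysomes.

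**Figure D2:**
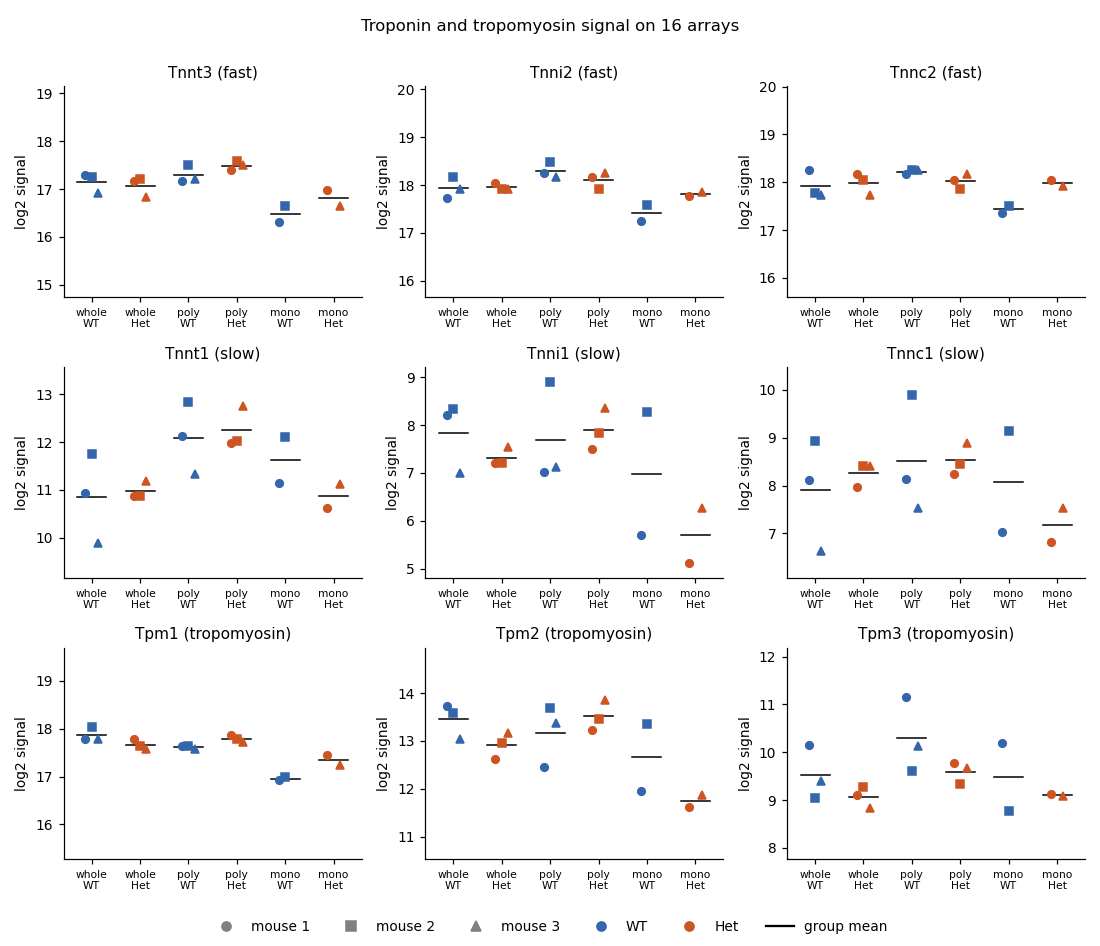
Log2 signal of the brightest probe of each of the 9 genes in the 6 groups, with 1 point per array, a line at each group mean, and the same number of log2 units on every vertical axis. The fast troponin points of a group lie close together, while slow troponin points of WT mice spread widely, as in Tnnc1 polysomes from 7.53 to 9.90. The value of 9.90 is from WT polysome 2, an array that stood apart.

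In whole muscle, no troponin probe passed the test between Het and WT mice. The 4 fast probes differed by -0.09 to 0.06 (adjusted p = 0.985 to 0.998, limma), but their direction was set by the scaling, with 0.33 to 0.86 after 75th percentile scaling and -0.53 to -0.21 in the authors' log2 table. Tnnt1 probe 1 differed by 0.12 (SE 0.48, limma adjusted p = 0.990), Tnni1 by -0.53 (SE 0.50, limma adjusted p = 0.870) and Tnnc1 by 0.36 (SE 0.63, limma adjusted p = 0.968). Tpm1 probe 4 differed by -1.09 (SE 0.36, exact permutation p = 0.1, limma p = 0.0114, limma adjusted p = 0.447). It was the 1 member of 17 past the study's threshold, a log2 difference above 1 either way with an unadjusted p under 0.05, a threshold that 5.46% of all probes tested passed. With an adjusted p under 0.05 as the rule, 0 members passed (1 at an unadjusted p under 0.05), beside 0.0101% of all probes. The median difference over members was -0.05, beside -0.03 over all probes tested, and 2 of 17 members did not overlap, beside 13.5% of all probes.

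Array brightness differed between the groups compared here. The 75th percentiles of the 3 WT whole-muscle arrays were 150.1, 57.1 and 42.3 and those of the Het arrays 33.0, 13.5 and 19.1, so that the WT arrays were the brighter in every case. With brightness as a term, the Tpm1 probe 4 difference was -0.16. Since brightness and genotype separate the same arrays, they cannot be told apart here. Without WT mouse 1 it was -0.70 and without Het mouse 3 it was -0.93, below the study's size of 1 in both cases. No tropomyosin probe was below -0.58 with normexp background correction or below -0.72 in the authors' log2 table. Of 17 alternatives, 8 gave a weaker result for Tpm1 probe 4. An exact permutation test of 3 against 3 mice cannot go below p = 0.1, the value it gave here.

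In polysomes, no member passed the study's threshold (0 of 17, and 1 at an unadjusted p under 0.05 in limma), beside 5.51% of all probes, and 0 members and 0% of all probes had an adjusted p under 0.05. The fast probes differed by -0.20 to 0.20, a range that was -0.68 to 0.08 after 75th percentile scaling and 0.07 to 0.83 in the authors' log2 table. The slow probes differed by 0.00 to 0.23. Tpm2 probe 2 was higher in Het by 0.76 (SE 0.28, limma adjusted p = 0.276) and Tpm1 probe 4 by 0.70 (SE 0.36, limma adjusted p = 0.361), both without overlap, as were 4 of 17 members and 21.8% of all probes. Tpm3 probe 1 lay at the other end, at -0.71 (SE 0.39, limma adjusted p = 0.392). Without WT mouse 2, 2 members and 4.03% of all probes passed the study's threshold, and without WT mouse 3, 1 member and 10.4% did.

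**Figure D3:**
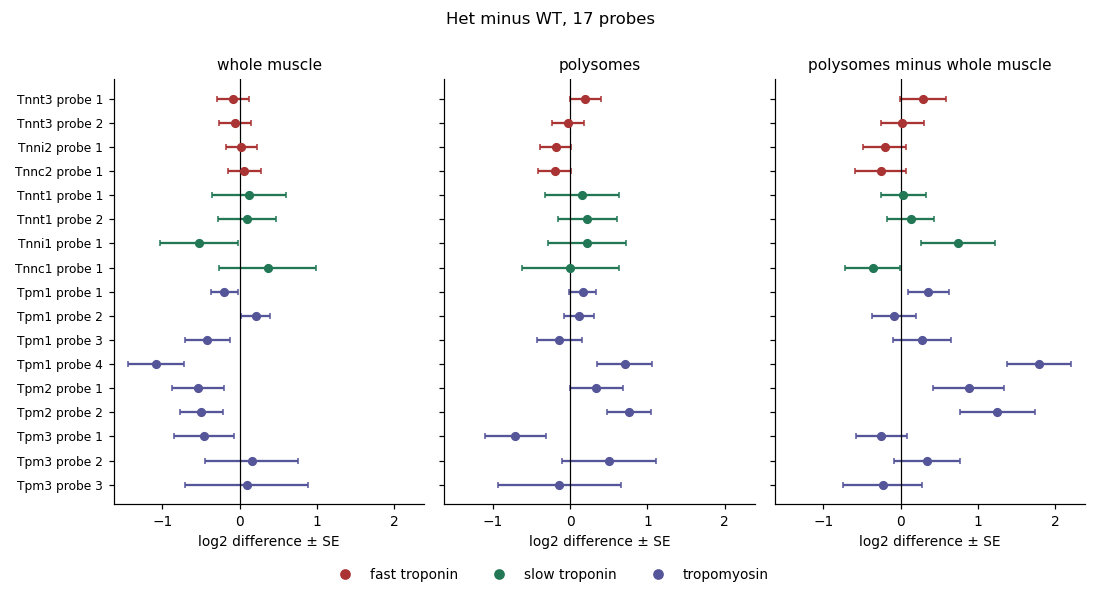
Log2 difference Het minus WT of each of 17 member probes in whole muscle, polysomes and polysome loading (polysomes minus whole muscle), with standard errors from limma as bars. The fast troponins lie between -0.26 and 0.29 in all panels, while Tpm1 probe 4 lies at -1.09 in whole muscle and 1.79 in loading and Tpm2 probe 2 at 0.76 in polysomes and 1.25 in loading.

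Polysome loading, the log2 ratio of polysome to whole-muscle signal in the same mouse, was compared between genotypes, and the members past the study's threshold were tropomyosins. Tpm1 probe 4 had ratios of 0.72, 0.79 and 1.33 in Het mice 1 to 3 and -1.19, -1.28 and -0.06 in WT mice 1 to 3. The genotypes did not overlap, and the difference was 1.79 (SE 0.42, exact permutation p = 0.1, limma p = 0.00327, limma adjusted p = 0.110). Tpm2 probe 2 had ratios of 0.89, 1.19 and 0.99 in Het and -1.15, -0.25 and 0.72 in WT. Its difference was 1.25 (SE 0.48, exact permutation p = 0.1, limma p = 0.0346, limma adjusted p = 0.257). Tpm2 probe 1 had ratios of 0.61, 0.50 and 0.68 in Het and -1.29, 0.10 and 0.34 in WT. They differed by 0.88 (SE 0.46, limma adjusted p = 0.377), and by 0.38 without WT mouse 1. The bright Tpm1 probe 1 had ratios of 0.08, 0.13 and 0.15 in Het and -0.13, -0.39 and -0.20 in WT, also without overlap, with a difference of 0.36 (SE 0.27, limma adjusted p = 0.513). Its neighbour, Tpm1 probe 2, had ratios of 0.20, 0.20 and 0.18 in Het and 0.57, 0.18 and 0.10 in WT, which overlapped, with a difference of -0.09 (SE 0.28, limma adjusted p = 0.882).

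Of the 17 members, 2 passed the study's threshold for loading (Tpm1 probe 4 and Tpm2 probe 2), beside 13.8% of all probes tested, and 0 members and 0% of all probes had an adjusted p under 0.05. The members' median difference was 0.13, beside 0.17 over all probes, and 4 of 17 members did not overlap, beside 25.4% of all probes. The loading values come from the same arrays as the whole-muscle and polysome differences and add no separate evidence to them. Among slow troponins, Tnni1 differed by 0.74 (SE 0.48, limma adjusted p = 0.459), Tnnc1 by -0.36 (SE 0.36, limma adjusted p = 0.620) and Tnnt1 probe 1 by 0.04 (SE 0.29, limma adjusted p = 0.957). Fast troponins spanned -0.26 to 0.29, a direction that depended on the scaling, since all 4 were negative after 75th percentile scaling (-1.54 to -0.25) and all 4 positive in the authors' log2 table (0.28 to 1.32).

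Both loading differences shrank with array brightness as a term, to 0.90 for Tpm1 probe 4 and to -0.11 for Tpm2 probe 2, neither past the threshold. The polysome arrays of WT mice 1 to 3 had brightness values of 54.7, 24.1 and 66.1 and those of the Het mice 73.6, 106 and 63.1. Relative to its whole-muscle array, every Het polysome array was thus brighter than any WT one, and brightness and genotype cannot be told apart for loading either. Every ratio also set an array of 1 slide against an array of the other. With the slide as a block the differences were 1.54 for Tpm1 probe 4 and 0.98 for Tpm2 probe 2, and within slides 1 and 2 they were 1.32 and 1.75 for the first and 0.96 and 1.001 for the second. Without WT mouse 1 the Tpm2 probe 2 difference was 0.79, and without any other mouse it was 1.17 to 1.73. Of 18 alternatives, 8 gave the same result for this probe, 9 a weaker one and 1 a reversed one. Since tropomyosin genes are also used outside muscle fibres, the marker sums of other cells are given here. Signals were summed before log2 was taken, so a sum mostly follows its brightest marker. For red cells this was Hba-a1 and for endothelium Kdr, so these sums do not show whether the markers of a cell type moved together. Summed fibroblast markers (5 of 5 found) were 14.61 to 14.92 in WT and 14.10 to 14.90 in Het whole muscle, and 15.78 to 15.84 in WT and 15.18 to 15.34 in Het polysomes. Summed smooth muscle markers (5 of 5 found) were 11.38 to 11.95 and 11.30 to 11.59 in whole muscle and 12.94 to 13.22 and 12.52 to 13.09 in polysomes, WT first. Red cell markers (3 of 3 found) overlapped in whole muscle, at 13.23 to 13.87 and 13.52 to 13.74, but not in polysomes, at 14.29 to 15.31 in WT and 13.26 to 13.71 in Het. Leukocyte markers (4 of 4 found) overlapped in both, with means of 9.96 in WT and 8.74 in Het whole muscle and 10.42 and 9.21 in polysomes, and with Ptprc well above background on 2 of 16 arrays. Endothelial markers (4 of 4 found) overlapped in both, with means of 11.73 and 11.54 in whole muscle and 12.13 and 11.48 in polysomes. Skeletal muscle markers (5 of 5 found) were lower on average in Het than in WT whole muscle and higher in Het polysomes, at 18.37 to 18.66 in WT and 18.19 to 18.51 in Het whole muscle and at 17.62 to 17.75 in WT and 18.01 to 18.26 in Het polysomes. The part of these markers in the tropomyosin values was not tested.

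**Figure D4:**
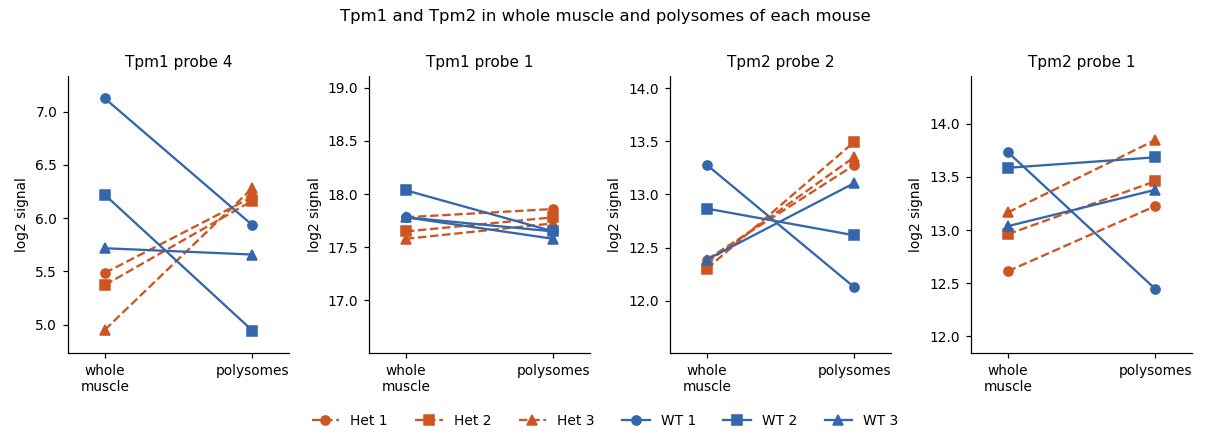
Whole-muscle and polysome log2 signals of 2 Tpm1 and 2 Tpm2 probes, with a line joining the arrays of each mouse. For Tpm1 probe 4 the 3 Het lines go up and the 3 WT lines go down (-0.06 to -1.28), and for Tpm2 probe 2 the 3 Het lines go up by 0.89 to 1.19 while WT lines go both ways.

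Within each genotype, the slow troponin T signal rose from whole muscle to polysomes, relative to other mRNAs. For Tnnt1 probe 1 the polysome minus whole-muscle ratio was 1.18, 1.09 and 1.44 in WT mice 1 to 3, a mean of 1.24 (SE 0.21, limma adjusted p = 0.0120). In Het mice 1 to 3 it was 1.11, 1.15 and 1.56, a mean of 1.27 (SE 0.21, limma adjusted p = 0.0209). All 6 mice thus moved the same way by similar amounts. This was the 1 member of 17 with an adjusted p under 0.05 in WT, beside 21.6% of all probes tested, and the 1 member in Het, beside 8.01% of all probes. Tnnt1 probe 2 gave mean ratios of 0.58 in WT (limma adjusted p = 0.0949) and 0.71 in Het (limma adjusted p = 0.0850).

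These calls had limits. Without the pairing of arrays by mouse, Tnnt1 probe 1 had an adjusted p of 0.096 in WT and 0.118 in Het in limma. In Het the call was also lost with the slide as a block (1.23, limma adjusted p = 0.051) and with array brightness as a term (1.13, limma adjusted p = 0.541), and in both genotypes with the methods' unpaired test after adjustment. Leaving out WT mouse 3 gave 1.14 (limma adjusted p = 0.063), and leaving out Het mouse 1, 2 or 3 gave 1.13 to 1.35 (limma adjusted p = 0.092 to 0.162). After 75th percentile scaling the Het mean was 0.84. Within a slide the comparison is between different mice, and there the WT difference was 2.60 on slide 1 and -0.02 on slide 2.

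Other members gave smaller ratios. In WT, the fast troponins had means of 0.14 to 0.55 (-0.61 to 0.15 in the authors' log2 table), Tnnc1 had 0.62 (SE 0.25, limma adjusted p = 0.116) and Tnni1 had -0.16 (SE 0.34, limma adjusted p = 0.749). In Het, the fast troponins had 0.05 to 0.57 (-0.62 to 0.28 after 75th percentile scaling), Tnnc1 had 0.27 (limma adjusted p = 0.518) and Tnni1 had 0.58 (limma adjusted p = 0.298). Tpm3 probe 1 had 0.77 in WT (SE 0.23, limma adjusted p = 0.0545) and 0.52 in Het (SE 0.23, limma adjusted p = 0.187).

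In monosomes, no member passed the test between genotypes, and 5 of 17 did not overlap, beside 50.4% of all probes tested. Of 17 members, 0 passed the study's threshold (0 at an unadjusted p under 0.05 in limma), beside 28.6% of all probes tested, and 0 had an adjusted p under 0.05, beside 0.499%. The differences of the slow probes were -0.05 to -1.29, with Tnni1 at -1.29 (SE 0.80, limma adjusted p = 0.254), Tnnc1 at -0.91 (SE 0.84, limma adjusted p = 0.435) and Tnnt1 probe 1 at -0.75 (SE 0.59, limma adjusted p = 0.361). The fast probes were all higher, by 0.07 to 0.55, although 2 of the 4 turned negative after 75th percentile scaling and 1 of the 4 with normexp background correction. WT monosome 2, the array with the unlike 5′ to 3′ pattern, held the highest monosome values of Tnnt1 probe 1, Tnni1 and Tnnc1. Without that mouse, which leaves 1 WT monosome array, the differences were -0.27 for Tnnt1 probe 1, -0.000449 for Tnni1 and 0.15 for Tnnc1, and without WT mouse 1 they were -1.24, -2.58 and -1.97. An exact permutation test of 2 against 2 cannot go below p = 0.333.

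From monosomes to polysomes, Tpm2 rose in Het mice. Tpm2 probe 2 was at 11.30 and 11.38 in Het monosomes and at 13.28, 13.50 and 13.35 in Het polysomes, a difference of 2.03 (SE 0.35, limma adjusted p = 0.00546). Tpm2 probe 1 gave 1.76 (SE 0.45, limma adjusted p = 0.0232). Tpm1 probe 4 gave 1.30 (SE 0.40), only just under the threshold with a limma adjusted p = 0.04998. Over 16 alternatives its value spanned 0.55 to 1.41, and 11 of them gave a weaker result. These were the 3 members of 17 called in Het, beside 12.5% of all probes tested, and the members' median difference was 1.13, beside 0.09 over all probes. The slow troponins also had large values that did not pass, namely Tnni1 at 2.20 (SE 0.73, limma adjusted p = 0.0674), Tnnt1 probe 1 at 1.38 (SE 0.54, limma adjusted p = 0.117) and Tnnc1 at 1.36 (SE 0.77, limma adjusted p = 0.287). The slow probes spanned 1.13 to 2.20 here, 0.73 to 1.34 with normexp background correction and 0.76 to 1.45 in the authors' log2 table. The fast probes gave 0.04 to 0.68 (-0.34 to 1.001 after 75th percentile scaling). Summed smooth muscle markers also went up, from 11.59 to 11.60 in Het monosomes to 12.52 to 13.09 in Het polysomes. Skeletal muscle sums went from 17.62 to 17.85 up to 18.01 to 18.26. Red cell sums went down, and the other sums overlapped. In WT the smooth muscle sums were 12.02 to 12.93 in monosomes and 12.94 to 13.22 in polysomes. The part of these cells in the Tpm2 values was not tested.

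With the mouse as a random block, 7 of 17 members and 19.1% of all probes passed in Het, the 4 members added being both Tnnt1 probes (adjusted p = 0.033 each in limma), Tnni1 (adjusted p = 0.021) and Tpm3 probe 2 (adjusted p = 0.037). Without WT mouse 2, whose polysome and monosome arrays stood apart, 10 of 17 members and 32.5% of all probes passed in Het, while without Het mouse 1, 2 or 3 the members passing were 0, 1 and 0 and the shares of all probes 0.00494%, 4.4% and 0.247%.

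In WT mice, 0 of 17 members passed an adjusted p under 0.05, beside 5.52% of all probes tested. At an unadjusted p under 0.05 in limma, 7 of 17 members passed, beside 33.6% of all probes, and the members' median was 0.66, beside 0.29. The fast probes gave 0.66 to 0.89 (limma adjusted p = 0.0524 to 0.10), with polysome values above monosome values on every array. With the mouse as a random block, 5 of 17 members and 21.6% of all probes passed, and the members were the 4 fast troponin probes (limma adjusted p = 0.018 to 0.038) and Tpm1 probe 1 (limma adjusted p = 0.031). Tpm2 probe 2 gave 0.95 (SE 0.35, limma adjusted p = 0.0970) and Tnni1 0.69 (SE 0.73, limma adjusted p = 0.506). The difference between genotypes in this comparison passed for 0 of 17 members, beside 0.00988% of all probes. It was 1.08 for Tpm2 probe 2 (SE 0.50, limma adjusted p = 0.631), the 1 member with an unadjusted p under 0.05, and 1.51 for Tnni1 (SE 1.04, limma adjusted p = 0.631). The call in Het and its absence in WT is therefore not a shown difference between genotypes. Without WT mouse 1, which leaves WT monosome 2 as the 1 WT monosome array, both Tpm2 probes passed this test (1.60 and 1.28, limma adjusted p = 0.0378 and 0.0414), beside 22.8% of all probes.

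**Figure D5:**
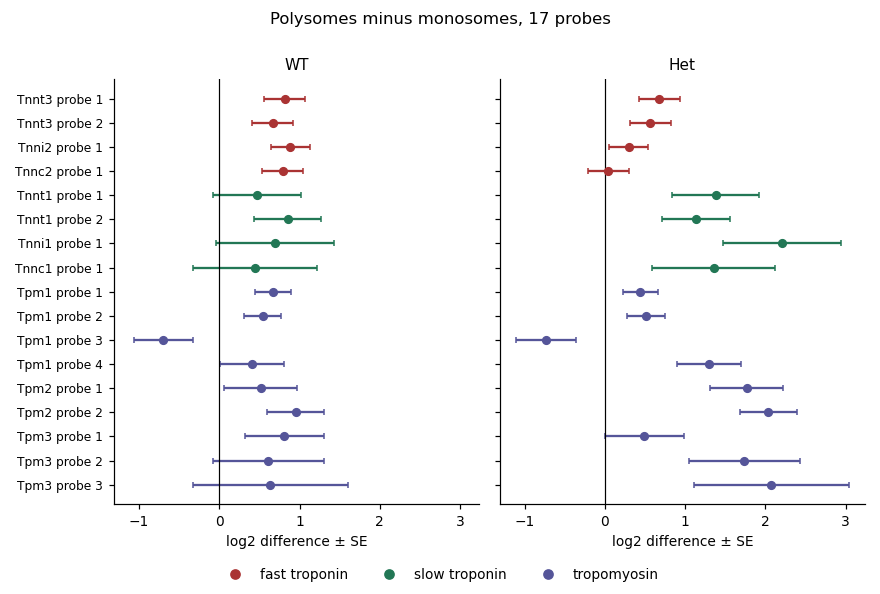
Log2 difference polysomes minus monosomes of each member probe in WT and in Het, with standard errors from limma as bars. In Het the Tpm2 probes lie at 2.03 and 1.76 and the fast troponins at 0.04 to 0.68, and in WT the fast troponins lie at 0.66 to 0.89.

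Other genes of the thin filament and of fast and slow fibres gave the surroundings of these values. In whole muscle, 0 of 11 thin filament genes, 0 of 11 fast fibre genes and 0 of 10 slow fibre genes tested passed the study's threshold between genotypes, and their medians were -0.13, 0.04 and 0.02. In polysomes, where 5.51% of all probes were past it, 2 of 11 thin filament genes were past it and higher in Het, Tmod1, a cap of the thin filament's pointed end (1.06, limma adjusted p = 0.219), and Cfl2, the muscle cofilin (1.14, limma adjusted p = 0.220). Fast fibre genes past it were Atp2a1, the calcium pump of fast fibres (1.62, limma adjusted p = 0.273), and Casq1, a calcium store protein (1.13, limma adjusted p = 0.246), 2 of 11, with 0 of 10 slow fibre genes. Without WT mouse 1, Atp2a1 was at 0.89, Casq1 at 0.73 and Tmod1 at 0.85, and without WT mouse 2 Cfl2 was at 0.77, each below the study's size of 1. Leaving out Het mouse 3 also took Atp2a1, Casq1 and Tmod1 out of the threshold, and leaving out Het mouse 2 took out Atp2a1 and Tmod1.

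For loading, where 13.8% of all probes passed the study's threshold, 3 of 11 thin filament genes did, all higher in Het, and they were Acta1, the skeletal actin that troponin and tropomyosin sit on (1.21, limma adjusted p = 0.258), Tmod1 (1.74, limma adjusted p = 0.140) and Cfl2 (1.24, limma adjusted p = 0.219). Atp2a1 (2.79, limma adjusted p = 0.137) and Casq1 (1.68, limma adjusted p = 0.174) passed among 11 fast fibre genes and 0 among 10 slow fibre genes. Tmod1, Atp2a1 and Casq1 stayed past the threshold with any 1 mouse left out, while Acta1 was at 0.70 without WT mouse 1 and Cfl2 at 0.85 without WT mouse 2. Acta1 also missed it without any 1 of the Het mice and Cfl2 without Het mouse 2 or 3 or WT mouse 1. The medians of the 3 lists were 0.57, 0.34 and 0.10, beside 0.17 over all probes.

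From whole muscle to polysomes in WT, where 21.6% of all probes were called, 3 of 11 thin filament genes fell, namely Acta1 (-1.19), Tmod1 (-1.72) and Cfl2 (-1.46), each with a limma adjusted p under 0.05. Of 11 fast fibre genes 3 fell, with Atp2a1 at -3.07 among them. Of 10 slow fibre genes 3 rose, and they included the slow myosin light chains Myl2 (0.80, limma adjusted p = 0.0416) and Myl3 (1.11, limma adjusted p = 0.0142), while 1 fell (Myoz2, -1.61). Without WT mouse 1, 0 of the 3 thin filament calls, 1 of the 3 fast fibre calls and 2 of the 4 slow fibre calls were left, with Acta1 at -0.68. The Myl2 call was lost with any 1 mouse left out and the Myl3 call without WT mouse 3. In Het, where 8.01% of all probes were called, 0 thin filament genes, 1 fast fibre gene (Mylk2, 1.099, higher) and 1 slow fibre gene (Myl3, 0.96, higher) passed, and both calls were lost without any 1 of the Het mice.

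From monosomes to polysomes in Het, where 12.5% of all probes were called, 7 of 11 thin filament genes rose, including Neb, the giant protein along the filament, by 1.50 and Tmod1 by 1.27, with a list median of 1.27, beside 0.09 over all probes. Fast fibre genes rose in 2 of 11 cases (Casq1, 2.13, and Mylk2, 1.43), with a median of 0.58, and slow fibre genes in 2 of 10 (Casq2, 1.71, and Ankrd2, 1.65), with a median of 1.14. None of these calls was left without Het mouse 1, 2 or 3, where 0.00494% to 4.4% of all probes passed. In WT, where 5.52% of all probes were called, 1 of 11 thin filament genes did (Lmod2, 1.58, limma adjusted p = 0.0199) and 0 of the fast and slow fibre genes. The Lmod2 call was lost without Het mouse 1 or 3 or WT mouse 2 or 3. The difference between genotypes passed for 0 genes of the 3 lists. Among relatives of the members, Tnnt2, the troponin T of the heart and of developing muscle, was well above background on 12 of 16 arrays and Tpm4, a tropomyosin of non-muscle cells, on 15 of 16. In whole muscle Tnnt2 differed by -0.13 and Tpm4 by -0.57 between genotypes, neither past the threshold.

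Over the 16 arrays of 6 mice, the genes whose pattern was most like the mean of the 3 slow troponins, among 7232 genes ranked, were Myl3 (r = 0.931) and Myl2 (r = 0.931), followed by Sugp2 (0.899), Oplah (0.878) and Bzw2 (0.878). Those most like the mean of the 3 fast troponins were Snrpd3 (r = 0.916), Cdkn1c (0.909), Commd4 (0.902), a transcript known only by its identifier and Hspb3 (0.897). Arrays of 1 mouse are not independent, and the fast profile differs between kinds of RNA, so these correlations are a description.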

How the data were processed

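RNA was labelled with Cy3 and hybridized to 1-colour Agilent SurePrint G3 arrays. Per the file headers, Feature Extraction 11.0.1.1 made the deposited spot intensity values, with probe positions on mm9. The authors log2-transformed and quantile-normalized them, and their deposited log2 table was used as an alternative. Here, control and outlier spots were left out, spots of a probe were averaged, log2 of the processed signal was quantile-normalized over 16 arrays, and limma 3.58.1 in R 4.3.3 was fitted to all probes that were bright enough, meaning well above background on each array of 1 or more groups (19812 of 55681 for whole muscle and polysomes, 20250 with monosomes). Adjusted p-values are Benjamini-Hochberg over all of these. Loading and polysome minus whole-muscle values used per-mouse ratios, since the series description says that the kinds of RNA came from the same animals. The deviations of a mouse's whole-muscle and polysome arrays from their group means correlated by 0.06 (WT 3) to 0.49 (Het 3).

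The study's threshold, an absolute log2 difference above 1 with p under 0.05, was applied to unadjusted p from limma in place of the study's unpaired test, which was run as an alternative. No array spot was saturated, and the number of arrays limits the precision. Nothing states whether RNA samples were pooled, so p-values measure the spread between these arrays. Named genes were the 9 members, the listed genes past a threshold, and the 5 genes most correlated with each troponin set. Eif6, relatives of the members and some cell type markers were named as well. Members, lists and tests were chosen with earlier results of these data known, and the test between genotypes of the polysome minus monosome difference was added after seeing the data. Fits were tested on simulated data with 200 changed genes. Member symbols (9 of 9) matched RefSeq for GRCm38.p6, of which no coordinate is given. The longest stretch shared by probes of different member genes was 13 bases, among 137 pairs. Members were checked under other scalings, background corrections, filters, slide, brightness and block terms and with each mouse left out.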

Additional observations from a re-analysis of the deposited data

Results flagged for a closer look

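A pair of member probes passed the study's threshold, with no adjustment, in the test of the difference in polysome loading between genotypes. For Tpm1 probe 4 (A_55_P2032192) the Het minus WT difference was 1.79 (exact permutation p = 0.1, limma p = 0.00327, limma adjusted p = 0.110), with positive ratios in 3 of 3 Het mice and negative ratios in 3 of 3 WT mice. For Tpm2 probe 2 (A_52_P315976) it was 1.25 (exact permutation p = 0.1, limma p = 0.0346, limma adjusted p = 0.257), with positive ratios in 3 of 3 Het mice and in 1 of 3 WT mice. Neither passed after adjustment, and 2 of 17 members is no more than the 13.8% of all probes past the same threshold. With array brightness as a term the differences were 0.90 and -0.11.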

How the results depend on the processing

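Counts of members past the threshold, in the order given in the report, depended on the processing as follows, and the cause was not tested. The study's threshold was used between genotypes in whole muscle, polysomes, loading and monosomes. An adjusted p under 0.05 was used for polysomes minus whole muscle, polysomes minus monosomes and the genotype difference in the latter. Counts under these 2 rules are not alike. In brackets is the share of all probes past the same threshold in the same setting. Within a slide a group holds 1 or 2 arrays (monosome groups 1 each), and leaving out a mouse can leave 1 monosome array, so that a lone array is there assumed to vary like the other groups. Whole muscle (1) gave 0 with normexp (0.217%), the authors' table (0.283%), probes well above background on every array (2%), the slide as a block (4.24%), within slide 1 (1.83%), brightness (3.74%) and the methods' t-test (2.03%), 3 within slide 2 (4.17%), and 0 to 1 with each mouse left out (2.64% to 9.73%). Polysomes (0) gave 1 within slide 2 (1.69%) and 0 to 2 with each mouse left out (2.95% to 10.4%). Loading (2) gave 4 with 75th percentile scaling (14.7%), 5 with the authors' table (4.11%), 1 with normexp (3.11%), the stricter filter (11.8%), the slide as a block (10.6%) and the methods' t-test (8.45%), 0 within slide 1 (1.68%), 6 within slide 2 (4.95%), 0 with brightness (4.08%), and 1 to 3 with each mouse left out (10.7% to 15.4%). Its Tpm2 probe 2 difference reversed to -0.11 with brightness. Polysomes minus whole muscle in WT (1) gave 3 with 75th percentile scaling (23.8%) and normexp (26.2%), 5 with the authors' table (26.4%), 4 with the stricter filter (39.3%), 0 within either slide (0%), without the replicate block (17.3%) and by the methods' t-test (3.12%), and 0 to 2 with each mouse left out (4.85% to 17.8%). Its Tnnt1 probe 1 value reversed to -0.0214 within slide 2. In Het (1) the count was 4 with normexp (14.7%), the authors' table (14.4%) and the stricter filter (22.8%), 0 with the slide as a block (2.12%), within either slide (0%) and with brightness (0%), and 0 to 2 with each mouse left out (0% to 16.9%). Monosomes (0) gave 4 within slide 2 (53.7%) and 0 to 2 with each mouse left out (8.62% to 55.8%). Polysomes minus monosomes in WT (0) gave 5 with normexp (10.4%), the stricter filter (19%) and the replicate block (21.6%), 3 with the authors' table (9.89%), 4 with no filter (2.47%), and 0 to 1 with each mouse left out (0.00494% to 38.7%). In Het (3) the count was 5 with 75th percentile scaling (12.5%), normexp (15.5%) and the stricter filter (29.7%), 6 with the authors' table (15.1%), 7 with the replicate block (19.1%), 0 within either slide (0%), and 0 to 10 with each mouse left out (0.00494% to 32.5%). The difference between genotypes in it (0) gave 1 within slide 2 (17.3%) and 0 to 2 with each mouse left out (0% to 22.8%).

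With the mouse as a replicate block, counts between genotypes were 1 in whole muscle, 0 in polysomes and 0 in monosomes, and without it loading gave 2, as in the report. The balance difference in whole muscle (0.01) was 0.69 with 75th percentile scaling, -1.02 within slide 1, 0.75 within slide 2, and -0.36 to 0.45 with each mouse left out. In polysomes (-0.19) it was 0.47 within slide 1, -1.05 within slide 2 and -0.67 to 0.17 with each mouse left out, and in monosomes (1.42) it was 0.60 to 2.23 with each mouse left out. Quantile normalization over 12 arrays was not run for monosomes, whose arrays it leaves out. Of members not called, 15 of 16 in whole muscle, 14 of 17 in polysomes and 14 of 15 in loading changed sign under at least 1 alternative, and 6, 1 and 3 of these had a difference larger than its standard error. Fast troponins sit at the top of the signal scale, where quantile normalization leaves few ranks to move, and Tpm1 probe 4 sits near background. These limit what either can show.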
